A study of Brassica napus with 8 samples.

Results

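A set of 200 rapeseed genes was low in germinating seed but expressed in young leaf, in 50 DPA seed and in dry seed of the same cultivar. Members were chosen on the deposited TMM-normalised signal, a count scaled to a common library size. They had a signal of at least 2 in all 6 libraries of young leaf, 50 DPA seed and dry seed, and below 1 in both libraries of germinating seed. Of 74684 genes in the normalised table, 21355 reached 2 in those 6 libraries and 256 of these fell within both limits. The 200 with the highest value of the lowest of the 3 tissue means were taken, and 56 were not. The values in all 4 tissues thus chose the members, so the gap between germinating seed and the other tissues describes the set and was not tested.

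Polyadenylated RNA of Brassica napus cultivar Zhongshuang 11 was sequenced in 8 libraries, 2 each from young leaves, seeds labelled 50 DPA, dry seeds and seeds after 48 h of germination. No treatment or genotype other than this cultivar is given, and all 4 groups share it. The labels place crop organs on a farm in Wuhan and vegetative tissues in greenhouses, so tissue and place of growth cannot be told apart where they differ. Neither separate plants for the 2 libraries of a tissue nor a common seed lot for the seed stages is stated. The p-values therefore cover the spread between the 2 libraries of a tissue, pooled over the 4 tissues and possibly technical.

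Rapeseed is an allotetraploid with an A and a C subgenome, so most genes have a close copy on the other subgenome. A maturing seed fills with storage reserves, dries and enters the quiescent state with a store of messenger RNA. On imbibition stored transcripts are degraded, new transcription starts, and the embryo leaves the maturation programme for seedling growth. The gene IDs of the files are not paired with names: 0 of 106059 were found in the available gene table, made for another assembly. Genes are therefore given by ID without a role, and the labelled tissues could not be checked against marker genes.

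Depth ran from 27635445 to 55721357 counts per library. A signal of 1 stood for 23.6 to 44.3 counts in the libraries of leaf, 50 DPA seed and dry seed, and for 73.2 and 55.4 counts in the 2 libraries of germinating seed. Log2 levels of the 2 libraries of a tissue correlated across genes, which are not independent replicates, with a Pearson's r that was lowest for dry seed, at 0.984, and highest for young leaf, at 0.995. Over the members, the median absolute log2 difference between 2 libraries was largest in dry seed (0.223) and germinating seed (0.204) and smaller in 50 DPA seed (0.121) and young leaf (0.0772).

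Members had low counts in germinating seed, mostly above 0. Their median signal there was 0.519 in the first library and 0.505 in the second, from 38 and 28 counts. In the other tissues the median was 7.75 and 7.92 in young leaf, 12.6 and 13 in 50 DPA seed, and 8.0 and 8.22 in dry seed. Of the 200, 177 had at least 6 counts in both germinating libraries, 17 were under 6 counts in 1 of them and 6 were under it in both. A floor of 6 counts stands for 3 read pairs here, since most counts are even, and it covers counting error only. Only 1 member, ZS11C03G073650, had 0 counts in both. In bulk tissue, fewer cells that hold a transcript and less of it per cell cannot be told apart. Whether reads of near-identical copies add to these low counts was not tested.

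Together the members took 1.12% of the counts in both young leaf libraries, 0.861% and 0.851% in 50 DPA seed, 0.300% and 0.306% in dry seed, and 0.0136% and 0.0131% in germinating seed. In 50 DPA seed, ZS11C01G022370 alone held 133925 of 33861108 and 142387 of 36535168 counts, a large part of the share there. The lowest of the 3 tissue means was at least 10 times the germinating mean in 108 members and at least 50 times in 15, where the 13 germinating means under the floor (0.0951 as a mean signal) were set to it. In 18 members it was under 4 times. On that basis the ratio had a median of 11.0 and ran from 3.01 to a lower bound of 166. That bound belonged to ZS11A07G039160, with 6 and 2 counts in germinating seed and signals of 87.1 and 90.7 in leaf, 21.7 and 18.6 in 50 DPA seed, 12 and 19.6 in dry seed, and 0.0820 and 0.0361 in germinating seed. That gene was picked after its values were seen. ZS11C03G073650 stood at 19.1 and 18.9 in leaf, 4.27 and 3.78 in 50 DPA seed and 3.42 and 4.02 in dry seed. Its lowest tissue mean was at least 39.1-fold above germinating seed, taken against the floor of 6 counts per library.

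**Figure D1:**
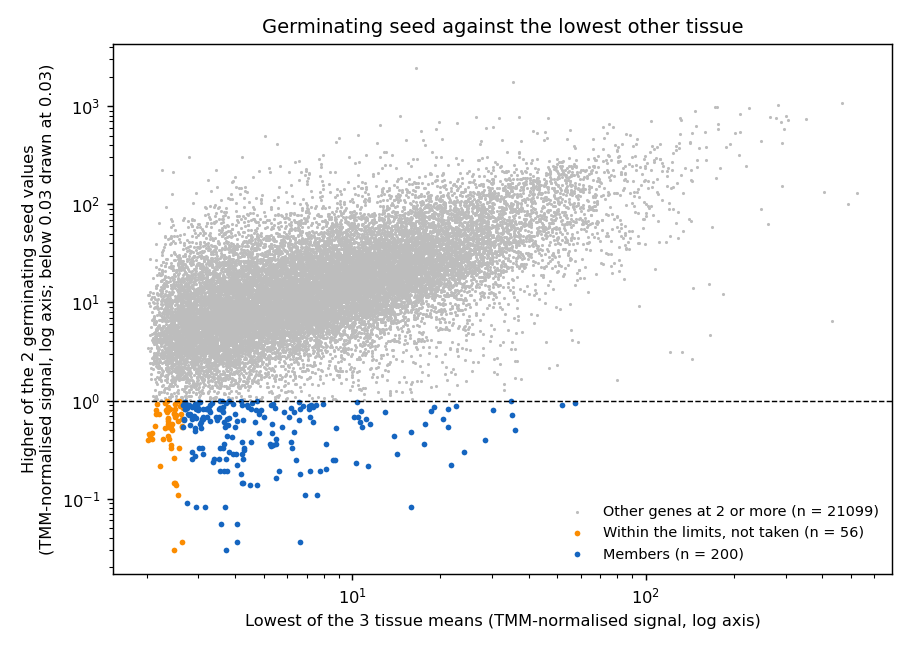
Higher of the 2 germinating seed signals against the lowest of the 3 other tissue means for 21355 genes at 2 or more in the 6 other libraries, on log axes. The dashed line marks a germinating signal of 1. The 200 members (blue) and the 56 genes not taken (orange) lie below it with no gap to the 21099 other genes (grey).

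The limits cut through a continuous range. In 34 members the higher germinating value was between 0.9 and 1, and 52 genes outside the set had it between 1 and 1.1. The member nearest to that limit, ZS11A05G041260, had signals of 0.998 and 0.938 in germinating seed, against 34.6 and 36.8 in 50 DPA seed. Just outside, ZS11C05G031650 had 0.738 and 1.01 in germinating seed and 2.07 and 2.39 in leaf. The last gene taken by rank was ZS11C09G001190, with a lowest tissue mean of 2.66, and the next was ZS11C05G022660 with 2.65.

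All 200 members were lower in germinating seed than in dry seed, than in 50 DPA seed and than in leaf (edgeR quasi-likelihood test, adjusted p under 0.05), while 28.5%, 29.5% and 33.3% of the 59062 genes tested were lower in these comparisons. The rule used these contrasts, so nothing is read from these calls. The median log2 fold change of the members was -4.60 against dry seed, -5.25 against 50 DPA seed and -4.24 against leaf. These 3 comparisons share the germinating libraries.

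The mirror rule, applied to each other tissue in turn, found 1239 genes low only in dry seed, 416 low only in young leaf and 160 low only in 50 DPA seed, beside the 256 of germinating seed. As a share of the genes at 2 or more in the other 3 tissues, these were 5.21%, 1.94%, 0.755% and 1.20%. With CPM on total counts alone as the scale, the numbers were 1173, 378, 320 and 150, so the order of 50 DPA and germinating seed rests on the scale. Genes with 0 counts in both libraries of the low tissue made up 14.8% of the dry seed set, 15.1% of the leaf set, 5.0% of the 50 DPA set and 0.781% (2 genes) of the germinating set. The floor of 6 counts stood at a signal of 0.219 in dry seed, 0.138 in leaf, 0.245 in 50 DPA seed and 0.0951 in germinating seed. The part of depth in these shares was not tested.

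The 10 members ranked first had a lowest tissue mean between 21.8 and 57.3, and they took different tissues as their highest. ZS11C09G011490 was a leaf-weighted gene, with signals of 248 and 234 in leaf, 60.1 and 54.6 in 50 DPA seed, 67.7 and 66.4 in dry seed, and 0.738 and 0.938 in germinating seed. It was lower in 50 DPA seed than in leaf by a log2 fold change of -2.05 (SE 0.0976, edgeR adjusted p = 1.08e-08), whereas dry over 50 DPA seed gave 0.23 (SE 0.0963, edgeR adjusted p = 0.0624). ZS11C03G014870 shared the leaf peak, at 159 and 156 in leaf, 27.4 and 29.2 in 50 DPA seed, 55.2 and 63.5 in dry seed, and 0.246 and 0.397 in germinating seed. Its leaf, 50 DPA and dry seed libraries did not overlap, and it was higher in dry than in 50 DPA seed (log2 fold change 1.07, SE 0.113, edgeR adjusted p = 1.09e-05).

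Among these 10, ZS11C04G037020 had the strongest peak in 50 DPA seed, at 412 and 418 there, 24.6 and 23.6 in leaf, 95.6 and 103 in dry seed, and 0.301 and 0.108 in germinating seed. From 50 DPA seed to dry seed the log2 fold change was -2.06 (SE 0.115, edgeR adjusted p = 6.78e-08). ZS11A02G007950 stood at 199 and 205 in 50 DPA seed, 49.5 and 47.4 in leaf, 33.4 and 36.9 in dry seed, and 0.711 and 0.505 in germinating seed. Its dry seed level lay below leaf as well, by a log2 fold change of -0.44 (edgeR adjusted p = 0.00198). ZS11A08G002250 stayed high in both seed stages, at 157 and 164 in 50 DPA seed and 124 and 112 in dry seed, against 34.4 and 35.0 in leaf and 0.984 and 0.794 in germinating seed. ZS11C05G057010 had a like order, with 137 and 142 in 50 DPA seed, 73.4 and 89.1 in dry seed, 29.8 and 30.9 in leaf, and 0.793 and 0.505 in germinating seed. For ZS11A07G035280 the signals were 111 and 116 in 50 DPA seed, 79.6 and 91.0 in dry seed, 52.4 and 51.7 in leaf, and 0.875 and 0.902 in germinating seed. The lower dry seed level of ZS11A08G002250 and ZS11A07G035280 passed the test on the TMM scale but not on total counts alone, where their log2 fold changes from 50 DPA to dry seed were -0.10 and -0.07.

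Others of the first 10 varied less across the 3 tissues. ZS11C07G062970 had 22.5 and 21.0 in leaf, 29.2 and 28.7 in 50 DPA seed, 23.2 and 22.4 in dry seed, and 0.219 and 0.144 in germinating seed. Its log2 fold change from leaf to 50 DPA seed was 0.43 on the TMM scale (SE 0.116, edgeR adjusted p = 0.00631) and -0.39 on total counts alone. ZS11C05G048730 had 31.4 and 30.7 in leaf, 21.6 and 23.7 in 50 DPA seed, 36.6 and 36.4 in dry seed, and 0.875 and 0.830 in germinating seed. Dry seed was above leaf by a log2 fold change of 0.25 (edgeR adjusted p = 0.0416), which turned to -0.23 on total counts alone. This call was also lost with the replicate block, with DESeq2, limma and no filter, and without either library of leaf or of dry seed. ZS11C04G010330 had 39.7 and 41.0 in leaf, 37.4 and 34.6 in 50 DPA seed, 48.9 and 63.5 in dry seed, and 0.437 and 0.505 in germinating seed.

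**Figure D2:**
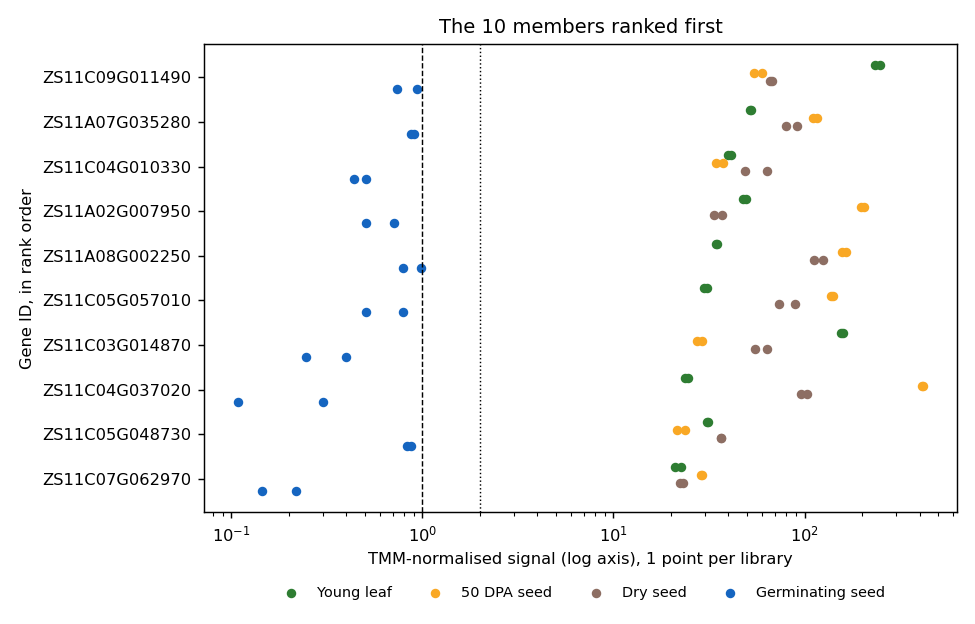
Signal of the 10 members ranked first in each of the 8 libraries, 1 point per library, on a log axis. The dashed and dotted lines mark 1 and 2. Germinating seed (blue) lies below 1 in every row, as the rule requires. The highest tissue changes from gene to gene, from leaf at 248 in ZS11C09G011490 to 50 DPA seed at 418 in ZS11C04G037020.

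The rule set a minimum in leaf, 50 DPA seed and dry seed but did not use the differences among them, and these could be tested. Dry seed, at the end of maturation, had lower levels than 50 DPA seed in 100 members and higher levels in 51 (edgeR quasi-likelihood test, adjusted p under 0.05, 2 libraries per tissue). Over all genes tested the shares were 33.8% lower and 26.0% higher, against 50.0% and 25.5% of the members. Among the 21099 other genes at 2 or more in the same 6 libraries, 28.8% were lower and 42.2% higher. Those genes had a median lowest tissue mean of 7.37, against 4.19 for the members, so signal level differs between the sets, and its part in these shares was not tested. The members' median log2 fold change was -0.46, with a median SE of 0.187, against -0.05 over all genes tested. On total counts alone, 89 members were lower and 66 higher, and the median was -0.12 against 0.00 over all genes.

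Large differences between the 2 seed stages ran both ways. ZS11C01G022370 had the highest signal of any member, 5664 and 5607 in 50 DPA seed, and stood at 5.26 and 6.27 in leaf, 18.7 and 17.8 in dry seed, and 0.355 and 0.541 in germinating seed. Its log2 fold change from 50 DPA to dry seed was -8.27 (SE 0.129, edgeR adjusted p = 2.72e-11). ZS11C01G028640 stood at 135 and 126 in 50 DPA seed, 3.86 and 5.22 in dry seed, 20.2 and 20.5 in leaf, and 0.383 and 0.0722 in germinating seed. Both genes were thus already much lower in dry seed than in 50 DPA seed. They were picked as large called changes without overlap between libraries, so the lack of overlap was set by that choice. Their lower level in germinating seed was set by the rule.

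In the other direction, ZS11A01G038320 stood at 101 and 102 in dry seed, against 4.69 and 4.13 in 50 DPA seed, 9.18 and 7.06 in leaf, and 0.765 and 0.866 in germinating seed. Its log2 fold change from 50 DPA to dry seed was 4.52 (SE 0.154, edgeR adjusted p = 2.12e-09). ZS11C07G026470 stood at 47.5 and 52.1 in dry seed, 2.96 and 3.50 in 50 DPA seed, 7.61 and 7.96 in leaf, and 0.834 and 0.541 in germinating seed. For these genes dry seed was the single high tissue, and the 50 DPA level was near the minimum that the rule set.

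**Figure D3:**
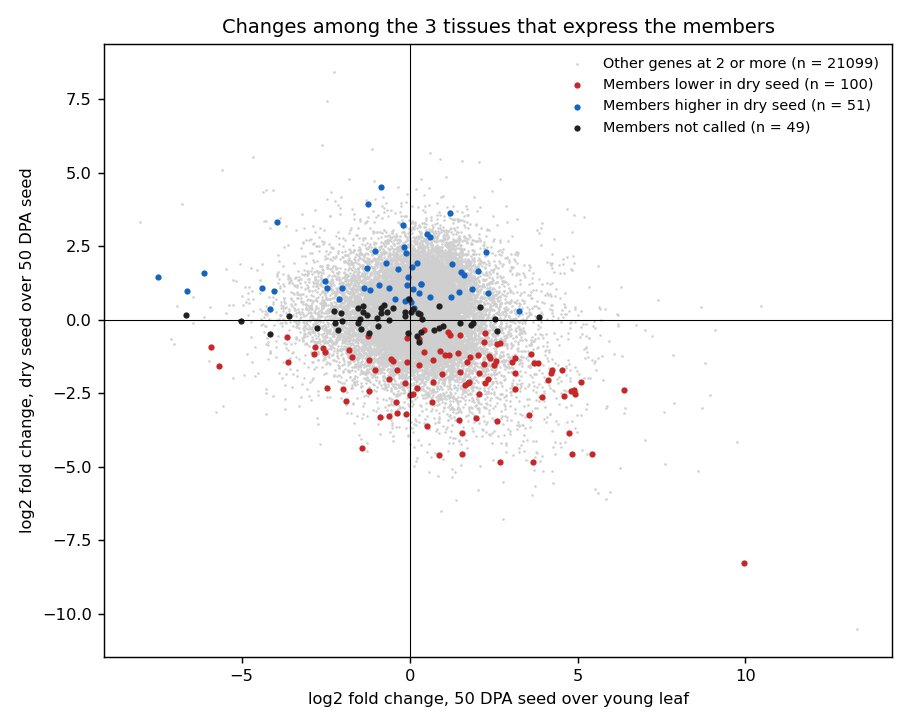
Log2 fold change from 50 DPA seed to dry seed against that from young leaf to 50 DPA seed, for the 200 members and the 21099 other genes at 2 or more. Members called lower in dry seed (red, 100) outnumber those called higher (blue, 51), and 49 were not called (black). Both axes share the 50 DPA libraries, so their relation is not read.

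Against young leaf, 50 DPA seed was higher in 89 members and lower in 71 (edgeR quasi-likelihood test, adjusted p under 0.05), while 30.9% and 38.8% of all genes tested were higher and lower. As shares of the members these were 44.5% and 35.5%, and of the other genes at 2 or more 44.9% and 26.1%. The direction of the balance turned with the scale, to 68 higher and 100 lower on total counts alone. The median of all genes was -0.20 with TMM and -1.02 with that scale, and the members' median stood 0.44 above it on both. ZS11C01G022370 had the largest excess in 50 DPA seed over leaf, at a log2 fold change of 9.95 (SE 0.139, edgeR adjusted p = 2.32e-12). ZS11A09G017720 followed, with 303 in both 50 DPA seed libraries, 3.15 and 4.2 in leaf, 57.2 and 57.5 in dry seed, and 0.191 and 0.0722 in germinating seed.

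The 2 members with the largest log2 fold change towards leaf over 50 DPA seed stood far above every seed stage in leaf. ZS11C04G052190 stood at 1014 and 1005 in leaf, 5.75 and 5.28 in 50 DPA seed, 14 and 16 in dry seed, and 0.410 and 0.253 in germinating seed, a log2 fold change from leaf to 50 DPA seed of -7.50 (SE 0.132, edgeR adjusted p = 8.03e-12). ZS11C08G051900 stood at 437 and 433 in leaf, 4.06 and 4.41 in 50 DPA seed, 5.12 and 4.31 in dry seed, and 0.0820 and 0.144 in germinating seed. In both genes leaf lay above all 3 seed samples, while 50 DPA and dry seed stayed above 4 in every library and germinating seed below 0.5.

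Dry seed was higher than leaf in 78 members and lower in 84 (edgeR quasi-likelihood test, adjusted p under 0.05), beside 30.9% and 46.7% of all genes tested. These are 39.0% and 42.0% of the members, against 50.6% and 30.2% of the other genes at 2 or more. On total counts alone 64 were higher and 98 lower. ZS11C06G050880 stood at 84.0 and 85.4 in dry seed, 7.70 and 5.95 in 50 DPA seed, 3.19 and 2.82 in leaf, and 0.246 and 0.325 in germinating seed, a log2 fold change from leaf of 4.84 (SE 0.152, edgeR adjusted p = 2.85e-10). ZS11A07G039950 was higher in 50 DPA seed than in leaf and higher again in dry seed, with 3.80 and 4.65 in leaf, 21.4 and 19.0 in 50 DPA seed, 104 and 93.2 in dry seed, and 0.0820 and 0.289 in germinating seed.

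Among members lower in dry seed than in leaf, ZS11A09G005960 had the largest log2 fold change, -7.23 (SE 0.144, edgeR adjusted p = 1.28e-11). Its signals were 447 and 441 in leaf, 8.54 and 8.66 in 50 DPA seed, 2.78 and 3.06 in dry seed, and 0.519 and 0.289 in germinating seed. ZS11A03G040220 stood at 669 and 640.4 in leaf, 10.1 and 11.4 in 50 DPA seed, 5.76 and 5.55 in dry seed, and 0.191 and 0.144 in germinating seed. In both genes 50 DPA seed lay below leaf and dry seed below 50 DPA seed, while the rule itself placed germinating seed lowest.

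Taking the 3 comparisons together, 64 members were highest in 50 DPA seed, 58 in young leaf and 35 in dry seed by both of the calls that involve that tissue. Over all genes tested the shares were 13.8%, 32.6% and 19.2%, and over the other genes at 2 or more 14.3%, 18.4% and 34.5%. As shares of the members the numbers are 32%, 29% and 17.5%. With total counts alone they were 48, 76 and 32 members, beside 8.65%, 44.1% and 19.0% of all genes, so whether leaf or 50 DPA seed leads depends on the scale. The members' share highest in 50 DPA seed was above that of all genes on each of the 3 scales run, TMM, DESeq2 size factors and total counts. No test of this difference was made, since genes are not replicates.

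On the TMM scale, all 3 comparisons were called in 105 members (52.5%), which gives an order of the tissues. The shares were 35.6% of all genes tested and 44.7% of the other genes at 2 or more. These orders were not counted on total counts alone, where the balance between leaf and 50 DPA seed turned. The most common order, in 34 members, was 50 DPA seed over dry seed over leaf, with median signals of 65.3, 16.2 and 4.14, and it was held by 4.24% of all genes tested and 5.29% of the other genes at 2 or more. Leaf over 50 DPA seed over dry seed followed with 25 members, with medians of 53.4, 18.7 and 4.19, beside 11.5% of all genes tested. Next came 50 DPA seed over leaf over dry seed in 16 members (4.28% of all genes tested), leaf over dry seed over 50 DPA seed in 11 (3.25%) and dry seed over leaf over 50 DPA seed in 5 (2.22%). The order dry seed over 50 DPA seed over leaf, held by 20.3% of the other genes at 2 or more and 10.1% of all genes tested, was held by 14 members (7.0%). In 13 members none of the 3 comparisons was called, beside 10.7% of all genes tested, and their median signals were 3.82 in 50 DPA seed, 3.79 in dry seed, 3.64 in leaf and 0.534 after germination.

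Members also differed in how uneven they were across the 3 tissues. The highest tissue mean was at least 10 times the lowest in 65 members and under 2 times in 30, with a median ratio of 5.11 and a range from 1.12 to 977. Members whose highest mean was in leaf (71) had a median of 38.4 there, those highest in 50 DPA seed (80) a median of 29.6, and those highest in dry seed (49) a median of 19.2. At least 1 tissue mean reached 100 in 40 members, while 32 members reached 10 in all 3 tissues.

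**Figure D4:**
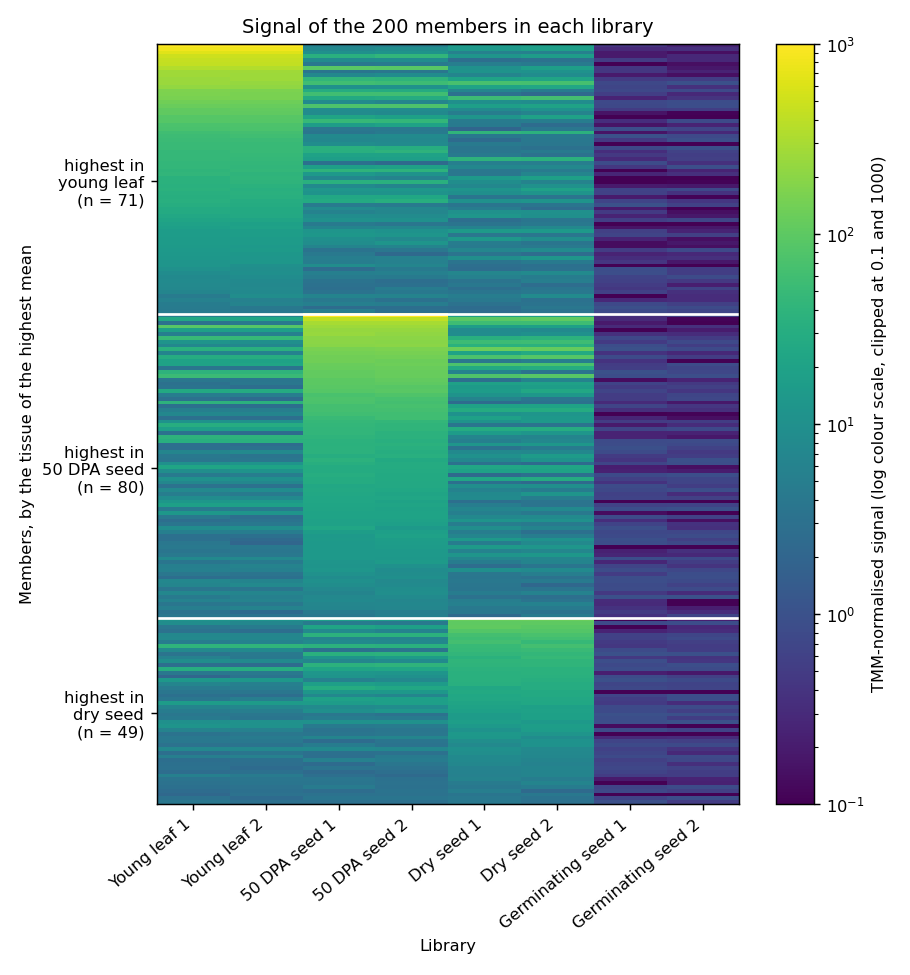
Signal of the 200 members (rows) in each of the 8 libraries (columns) on a log colour scale clipped at 0.1 and 1000. Rows are grouped by the tissue of the highest mean, 71 in young leaf, 80 in 50 DPA seed and 49 in dry seed, and the 2 libraries of a tissue look alike, with both germinating libraries dark throughout.

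The chromosome is part of the gene ID and was not used by the rule. Of the members, 102 carried an A prefix and 98 a C prefix, so 51.0% were on the A subgenome (exact 95% binomial interval 43.9% to 58.1%, counting error only). Among the other genes at 2 or more 48.2% had an A prefix, and among all IDs 41.8%. Members occurred on all 19 chromosome prefixes. C03 held 29 members (14.5%), against 8.79% of the other genes at 2 or more, and A09 held 20 of the 200, against 6.82%. At the low end A04 and A10 held 4 each (2.0%), against 3.17% and 3.92%. The chromosomes were picked out after their values were seen, and no test was made.

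Members were mostly scattered along the ID order. Within a chromosome, 3 pairs of members had adjacent IDs. One was ZS11A05G036470, at 70.9 and 80.0 in 50 DPA seed and 4.93 and 5.10 in leaf, beside ZS11A05G036480, at 28.2 and 31.8 in 50 DPA seed and 33.5 and 30.3 in leaf. These neighbours differed in leaf by more than the spread between libraries, while both were near 0.5 in germinating seed (0.519 and 0.686, and 0.656 and 0.433). A second pair was ZS11A09G005960, described above, and ZS11A09G005970, at 51.2 and 49.8 in leaf, 34.0 and 31.0 in 50 DPA seed, 3.61 and 3.06 in dry seed, and 0.738 and 0.938 in germinating seed. The members had 399 ID neighbours, of which 110 reached 2 in the 6 other libraries. Of these, 7 (6.36%) were also within the limits of the rule, against 1.22% of the corresponding neighbours of the other genes. Each pair of members counts from both sides, and whether adjacent IDs overlap, are copies of each other or share reads is not given in the sources used here.

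**Figure D5:**
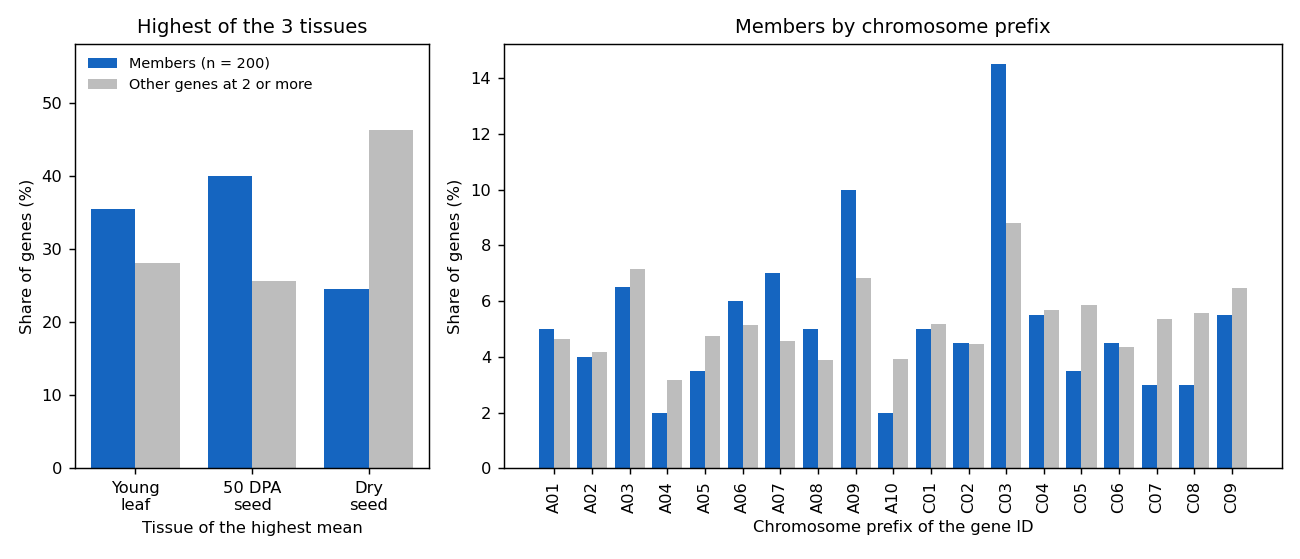
Left, share of the 200 members (blue) and of the 21099 other genes at 2 or more (grey) by the tissue of the highest mean. Right, share of the same sets by chromosome prefix, where C03 holds 14.5% of the members and 8.79% of the other genes.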

How the data were processed

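HISAT2, SAMtools, edgeR and FastQC are the tools listed, without versions, per the submitters' processing notes. The read counter, strandedness, build and annotation were not given in the sources used here. The deposited table holds whole-number counts per gene, and 1 inner line that names alignment files was removed. The deposited TMM signal equals the count times 1 constant per library (largest deviation 0.000345% among values of at least 1000 counts), as tested on the files. In each library 80.5% to 85.4% of nonzero counts were even, as when both mates are counted. Reads shared by near-identical copies may be split or lost, so levels of single IDs are uncertain to that extent.

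Levels are the deposited signal, as values per library. Tests used the counts of all 8 libraries: filterByExpr (59062 genes, all 200 members among them), TMM factors and the quasi-likelihood test of edgeR (version 4.0.16, under R 4.3.3), 2-sided, on a mean for each tissue, Benjamini-Hochberg adjusted over all genes tested at 0.05. Each SE was derived from that test, as the absolute log2 fold change over the square root of its F statistic. The tissues share 1 estimate of the spread per gene, which can understate p-values of dry seed, whose libraries differed most. The step was run on simulated counts with the same spread in every tissue, so that run could not show this effect. Replicates differed by more than sampling noise in each tissue (mean chi-square per gene on halved counts from 1.24 to 5.95). Alternatives were DESeq2 (1.42.0), limma (3.58.1) on log2(signal + 0.5), other scales and filters, a 2-fold minimum, halved counts, a replicate block, fits of 2 tissues and libraries left out.

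The rule for named genes took the 10 members ranked first, the 2 largest called changes per direction without overlap in each comparison among leaf, 50 DPA and dry seed, the top members at 0 counts in germinating seed, those beside each limit, and up to 4 with adjacent IDs. Marker lists by product name could not be applied. Members and lists were chosen with earlier results of these data known.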

Additional observations from a re-analysis of the deposited data

How the results depend on the processing

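The number of genes within the limits rested on the scale and the limits. It was 256, and became 150 with CPM on total counts alone, 94 with a germinating limit of 0.5 and 68 with a minimum of 5 in the other tissues, where stricter limits can only remove genes. Of the 200 members, 120, 75 and 68 were still within the limits in these cases. With DESeq2 size factors, added after the data were seen, there were 293 genes. With 1 library left out there were 266 to 338, where dropping a library can only add genes and keeps all 200 members within the limits. Without the first or second germinating library, 148 and 169 of the 200 taken were members. The 6 counts of members called among leaf, 50 DPA and dry seed stayed within 1.5 times their value under all 17 alternatives each. With the replicate block, 98 members were lower and 49 higher in dry than in 50 DPA seed, against 100 and 51. The deviations of same-numbered libraries correlated at -0.00856 to 0.00637 between tissues, so no deviation shared by number was seen across genes. Whether same-numbered libraries share a plant or batch is not stated. Leaving out 1 library gave 96 to 103 lower and 42 to 53 higher in that comparison, 80 to 92 higher and 59 to 73 lower in 50 DPA seed against leaf, and 72 to 81 higher and 75 to 85 lower in dry seed against leaf, a lone library being assumed to vary like the other tissues. Of 663 alternative values of named genes, 631 kept direction and call. On total counts alone ZS11C07G062970 turned to -0.39 in 50 DPA seed against leaf and ZS11C05G048730 to -0.23 in dry seed against leaf. The latter's call was also lost with the replicate block, DESeq2, limma and 7 other settings. The share of A prefixes was between 45.6% and 52.5% in all 12 alternatives. These sets mostly hold the same genes, so little change could arise and nothing is concluded from it.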
